A study of Mus musculus with 3 samples.

Results

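The 10 genes described here encode colony-stimulating factors and interleukins that epithelial tumors can release: Csf1, Csf2, Csf3, Kitl, Il6, Il11, Il23a, Il33, Il34 and Tslp. They were taken as a list of gene symbols, and every probe on the arrays whose accession belonged to one of them was used, which gave 12 probes, 3 of them for Csf1 and 1 for each of the others. Of the 10 genes, 9 entered the test, among 21728 genes and transcripts tested in all. Csf2 was measured above background in only 1 tumor and has values without a test. Tumor cells came from primary mammary tumors of 3 MMTV-PyMT mice, in which the mouse mammary tumor virus promoter drives the polyoma middle T oncogene in mammary epithelium. The cells of each tumor (tumors 1, 2 and 3) were cultured with cholera toxin, insulin and EGF, either untreated (control) or with the ligand of RANK, RL, for 24 h. The labels give the dose of RL as 1000 ug/ml, and the methods of the study give a far lower one, 1 ug/ml. Those methods also describe the cells of such cultures as coming from tumor transplants. They describe seeding on top of Matrigel in medium with serum, and RL added 24 h after plating. Both cultures of a tumor were hybridized to 1 array read in both dyes, with RL in Cy3 for tumors 1 and 3 and in Cy5 for tumor 2, and all 3 arrays lay on 1 slide.

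RANK is a receptor of the tumor necrosis factor receptor family, and its best known output in mammary epithelium is NF-κB, in both its canonical and its alternative form. Many cytokine genes of stroma and epithelium carry κB elements and are induced when NF-κB is active. M-CSF (Csf1) and IL-34 sustain macrophages through 1 shared receptor, GM-CSF (Csf2) and G-CSF (Csf3) drive myeloid and granulocyte output, stem cell factor (Kitl) supports mast cells and progenitors, IL-6 and IL-11 signal through gp130, the p19 chain of IL-23 (Il23a) supports IL-17-producing lymphocytes, and IL-33 and TSLP are alarmins of barrier epithelium. The comparison asks which of these genes change in the tumor cell cultures after a day with RL.

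RefSeq promoter sequence, from 250 bases before to 50 after the start of a transcript on build GRCm38.p6, was at hand for 6 of the 10 genes: Csf1, Csf2, Kitl, Il6, Il11 and Il33. Il23a, Csf3, Il34 and Tslp had no entry among the promoter sequences at hand, although their probes matched RefSeq transcripts. The stretches that hold a match to the κB consensus are shown because RL acts through NF-κB and none of these 3 genes passed the test described next. A match on either strand was found in 8.46% of 32851 promoters, and in Csf1 (chr3:107760594-107760643, minus strand), Kitl (chr10:100015649-100015698, plus strand) and Il6 (chr5:30013050-30013099, plus strand). Each stretch is written 5′ to 3′ on the strand of its gene, with the match in capitals, and the matches of Csf1 and Kitl read as the consensus on the opposite strand.
Csf1: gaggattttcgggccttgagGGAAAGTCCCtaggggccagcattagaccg
Kitl: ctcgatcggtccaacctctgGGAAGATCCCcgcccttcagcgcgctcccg
Il6: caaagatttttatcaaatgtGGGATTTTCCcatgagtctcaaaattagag
The match begins 154 bases before the start of the transcript in Csf1, 152 in Kitl and 44 in Il6. TGANTCA, the core bound by AP-1 factors, was found on either strand in 7.81% of promoters, and for Il6 and Il11. Il11 had 2 promoters and 1 match. The Il11 stretch lies at chr7:4778213-4778259 on the minus strand, its match beginning 98 bases before the start.
Il11: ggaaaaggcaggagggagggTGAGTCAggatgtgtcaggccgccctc
These are matches of letters, and binding was not measured.

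Most of these cytokine genes had ratios close to 0 after a day with RL, and the mean log2 ratio of 7 of the 9 tested lay between -0.088 and 0.16. No member passed the test in limma, with 0 of 9 raised and 0 of 9 lowered at an adjusted p under 0.05, where 0.00460% of all genes tested were raised and 0.0230% lowered. At an unadjusted p under 0.05 there were 2 of 9, Il23a and Il34, against 7.16% of all genes, and by rank product the lowest proportion of false positives (pfp) among the members was 0.112. The ratio of RL over control was above 0 in all 3 tumors for 3 of the 9 (Il23a, Il34 and Il6) and below 0 in all 3 for 0 of the 9, where 14.2% and 13.3% of all genes tested did so. The median log2 ratio was 0.065 for the 9 members and -0.00068 for all genes. Across all 21728 genes, 1 was raised, the ubiquitin-like gene Ubd, and 5 were lowered, the milk protein genes Lalba, Wap and Csn1s1 together with Lrg1 and Foxi1, names that were picked after their values were seen. Levels also differed between the tumors. For 7 of the 9 members (all but Il23a and Il34) the mean level had a wider range over tumors than the ratio of RL over control. That was so for 60.9% of all genes tested. This sets the spread of the level against the spread of the ratio, not against its size. For Il23a the range of mean level, 0.65, was larger than the mean log2 ratio of 0.50, and for Il34 the range of 0.20 was smaller than the mean of 0.29.

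**Figure D1:**
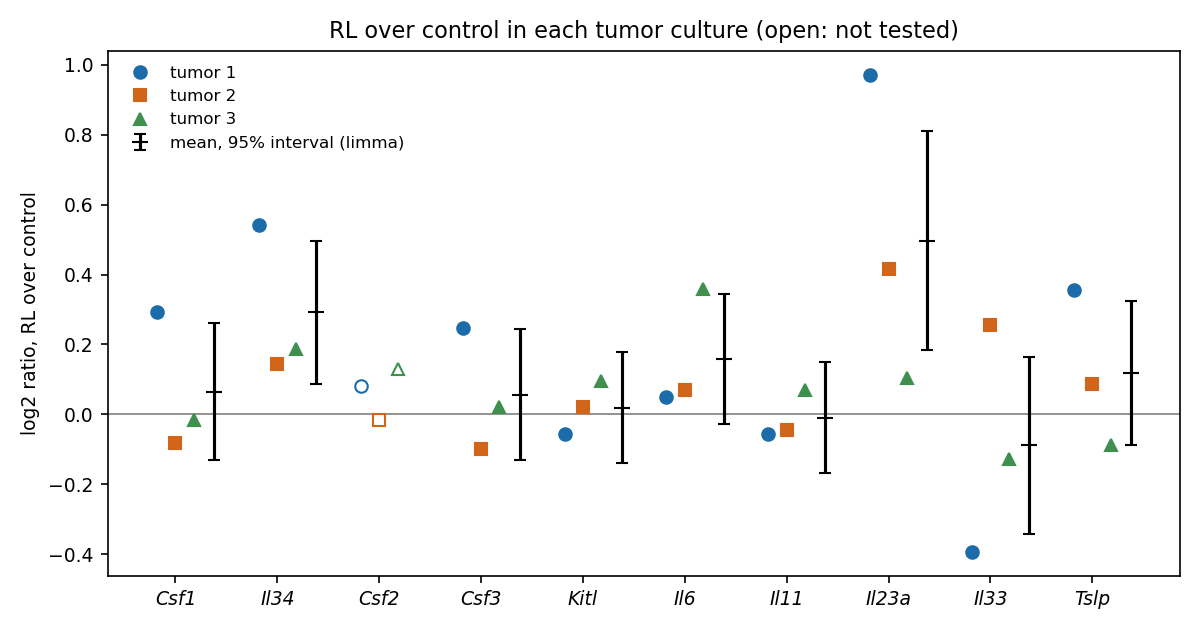
The log2 ratio of RL over control (y axis) is plotted for each of the 10 cytokine genes (x axis) in tumors 1, 2 and 3, with the mean and the 95% interval of the limma fit beside them; open symbols mark Csf2, which was not tested. Il23a has the highest mean, 0.50, and tumor 1 gives its highest point, 0.97.

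Il23a had the largest ratio of the members. It encodes p19, which pairs with the p40 chain to form IL-23. Its normalized log2 level in tumor 1 was 7.00 in control and 7.97 with RL. In tumor 2 it was 7.93 in control and 8.35 with RL, and in tumor 3 it was 8.06 in control and 8.17 with RL. RL was the higher culture in 3 of 3 tumors, and the control culture of tumor 1 lay well under the control cultures of tumors 2 and 3, so that with RL the 3 tumors came close together. The log2 ratios were 0.97, 0.42 and 0.10 in tumors 1, 2 and 3, a mean of 0.50 ± 0.44 (SD, n = 3), or 1.41-fold with a 95% interval of 1.14 to 1.75. This was the 31st highest mean of all genes tested, yet the adjusted p in limma was 0.43 and the pfp by rank product 0.112. The spot was dim, with an intensity of 160 over a local background of 70 in the control culture of tumor 1.

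Tumors 1 and 3 share a dye order, tumor 2 has the other, and the ratio of Il23a was above 0 under both orders. With a term for the dye in limma, the log2 ratio of Il23a was 0.48 and its adjusted p 0.0047, which made it 1 of 9 members raised and 0 of 9 lowered, where 0.603% and 0.792% of all genes were. That fit leaves 1 residual degree of freedom, from tumors 1 and 3, and moderates it with 32.6 prior ones, so the gene's own spread has little weight in it. Without tumor 1 the mean was 0.26, and without tumor 2 it was 0.54 with an adjusted p of 0.0017 in limma on 2 arrays of 1 dye order; over all 18 alternatives the ratio was above 0 and the adjusted p or pfp ran from 0.0017 to 1.00.

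NF-κB target genes mostly had their largest ratios in tumor 1, as Il23a did. They were listed to see whether the cells responded. The list was chosen with earlier results of these data known, so its counts are no independent check of a response. All 10 of the 10 targets tested were above 0 in all 3 tumors, where 14.2% of all genes tested were. Their median log2 ratio was 0.55 over the mean of the tumors, and 1.12, 0.45 and 0.27 in tumors 1, 2 and 3. For 9 of the 10 the ratio was highest in tumor 1, against 31.5% of all genes tested. That was also so for 6 of 7 epithelial markers and 7 of 12 related cytokines. It was so for 1 of 6 macrophage and 0 of 7 fibroblast markers. The epithelial markers had median log2 ratios of 0.15, -0.18 and -0.11 in tumors 1, 2 and 3. The highest means were those of Nfkbia, the inhibitor of NF-κB that NF-κB itself induces (1.48, 0.47 and 0.38, mean 0.77), and Nfkbie (1.31, 0.58 and 0.36, mean 0.75). The lowest were those of Tnfaip3, a deubiquitinase that restrains NF-κB (0.64, 0.16 and 0.24, mean 0.35), and Birc3 (0.66, 0.51 and 0.16, mean 0.44). In limma 0 of 10 passed, with adjusted p from 0.075, that of Cxcl10, to 0.45, while 5 of 10 were raised at a pfp under 0.05 by rank product, against 0.166% of all genes tested, and 10 of 10 were raised with the dye term, against 0.603%. Cxcl10 was not well above background in the control culture of tumor 1 and entered the test only through its RL channels. Without it 9 of 9 targets were above 0 in all 3 tumors, 0 of 9 passed in limma, with adjusted p from 0.20 to 0.45, 4 of 9 were raised by rank product and 9 of 9 with the dye term.

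Over the 3 tumors, the 5 named genes whose log2 ratios lay nearest to those of Il23a by Euclidean distance, out of 14038, were Cd47 (distance 0.16), Pde2a (0.18), Plekhs1 (0.20), Tnfaip2 (0.24) and Relb (0.24). Tnfaip2 and Relb, the latter a subunit of the alternative NF-κB dimer, are also on the list of NF-κB targets. That list was chosen with earlier results of these data known, and the nearest genes by these same ratios. The overlap is therefore no test of a link between Il23a and NF-κB. Relb had ratios of 1.15, 0.29 and 0.21, and Cd47, an inhibitory signal to phagocytes, 0.94, 0.30 and 0.21. Their adjusted p in limma were 0.45 and 0.40, so these are genes of a like pattern over 3 arrays and not genes that passed the test.

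**Figure D2:**
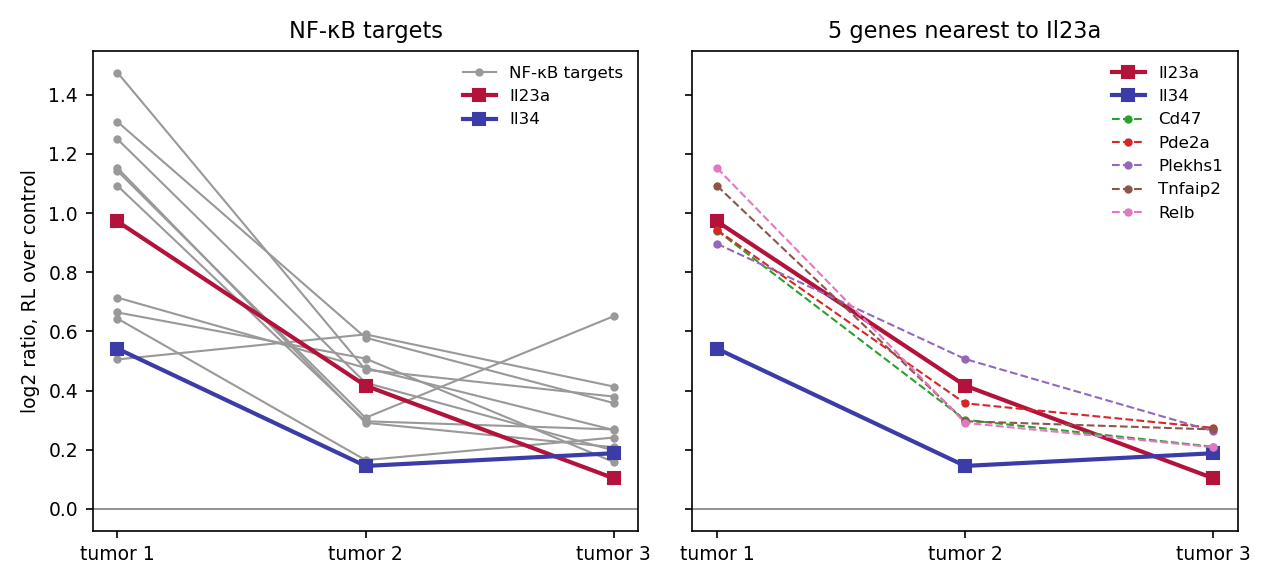
The log2 ratio of RL over control (y axis) in tumors 1, 2 and 3 (x axis) is drawn for Il23a and Il34 with the 10 NF-κB targets (left) and with the 5 genes nearest to Il23a (right); lines only join the values of 1 gene. The median of the NF-κB targets is 1.12 in tumor 1, 0.45 in tumor 2 and 0.27 in tumor 3.

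IL-23 also needs another chain and a receptor. No probe was matched to Il12b, the p40 chain. Il12a, the p35 chain of IL-12, was not well above background in any of the 6 channels, nor was Il23r, the specific receptor chain. Il12rb1, the receptor chain shared by IL-12 and IL-23, was well above background in all 6, with log2 ratios of 0.0078, -0.072 and -0.051 in tumors 1, 2 and 3. Ebi3, which pairs with other chains of the family, had a mean log2 ratio of -0.074, and Il27 one of -0.13, with adjusted p of 0.88 and 0.81 in limma.

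Il34 was the other member with an unadjusted p under 0.05. IL-34 is the alternative ligand of the M-CSF receptor. Its normalized log2 level in the control cultures was 9.08, 9.08 and 9.23 in tumors 1, 2 and 3. With RL it was 9.62, 9.23 and 9.42, so each RL culture was above its own control, and the 3 control cultures lay close together. The log2 ratios of 0.54, 0.15 and 0.19 gave a mean of 0.29 ± 0.22 (SD, n = 3), or 1.22-fold with a 95% interval of 1.06 to 1.41. The adjusted p in limma was 0.49, the pfp 0.48, and with the dye term the log2 ratio was 0.25 and the adjusted p 0.12. Without tumor 1 the mean was 0.17, with median centering in place of loess it was 0.14, and without tumor 2 it was 0.36 with an adjusted p of 0.0088, the lowest of 18 alternatives, of which the highest was 1.00. The level of Il34 differed little between tumors: the range of its mean level over tumors was 0.20, and only 35.2% of genes tested had a smaller one.

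Csf1, the other ligand of that receptor, differed more between tumors than between RL and control. Its brightest probe, printed in 10 spots, had log2 levels of 10.84, 10.26 and 11.25 in the control cultures of tumors 1, 2 and 3. With RL the levels were 11.13, 10.18 and 11.23. Tumor 2 was lowest and tumor 3 highest in both conditions, a range of 1.02 in mean level, or 2.02-fold, larger than that of 92.8% of genes. The log2 ratios were 0.29, -0.081 and -0.016, a mean of 0.065 ± 0.20 (SD, n = 3; 95% interval -0.13 to 0.26; adjusted p in limma 0.91). Within tumor 1 the 10 spots gave ratios from 0.22 to 0.37, a spread of spots on 1 array that does not measure the spread between tumors. The other probes, both matched to another Csf1 transcript, had ratios of -0.0046, 0.24 and 0.21, and of 0.048, 0.20 and 0.065. They did not share the high value of tumor 1, and their ratios were highest in tumor 2, where that of the brightest probe was lowest. Their mean log2 ratios were 0.15 and 0.11, so the ratio of Csf1 depended on the probe. In level they gave the same order of tumors, with ranges of 1.39 and 1.23 in mean level.

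In cultures of mixed cells, fewer cells of a type and less RNA per cell cannot be told apart. The fibroblast markers Col1a1, Col1a2, Col3a1, Pdgfra, Pdgfrb, Dcn and Thy1 were well above background in all 6 channels, 7 of 7, as were 96.0% of all genes tested. With each probe compared only with itself, the order of the tumors in mean level was that of Csf1 for 5 of the 7, against 11.5% of all genes tested. Pdgfrb, with mean levels close in tumors 1 and 2, and Pdgfra did not share it, and Pdgfra was highest in tumor 2, with log2 levels of 8.06, 8.87 and 8.16 in the control cultures and 7.68, 8.72 and 8.12 with RL. Col1a2, the marker of these 7 with the widest range of mean level over tumors, 2.59, had log2 levels of 11.72, 9.99 and 12.68 in the control cultures of tumors 1, 2 and 3. The part of these cells in the level of any cytokine gene was not tested. None of the 7 passed the test for RL, and their median log2 ratio was -0.058. By tumor the median was -0.29, 0.16 and -0.050 in tumors 1, 2 and 3, where tumor 2 has the other dye order.

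**Figure D3:**
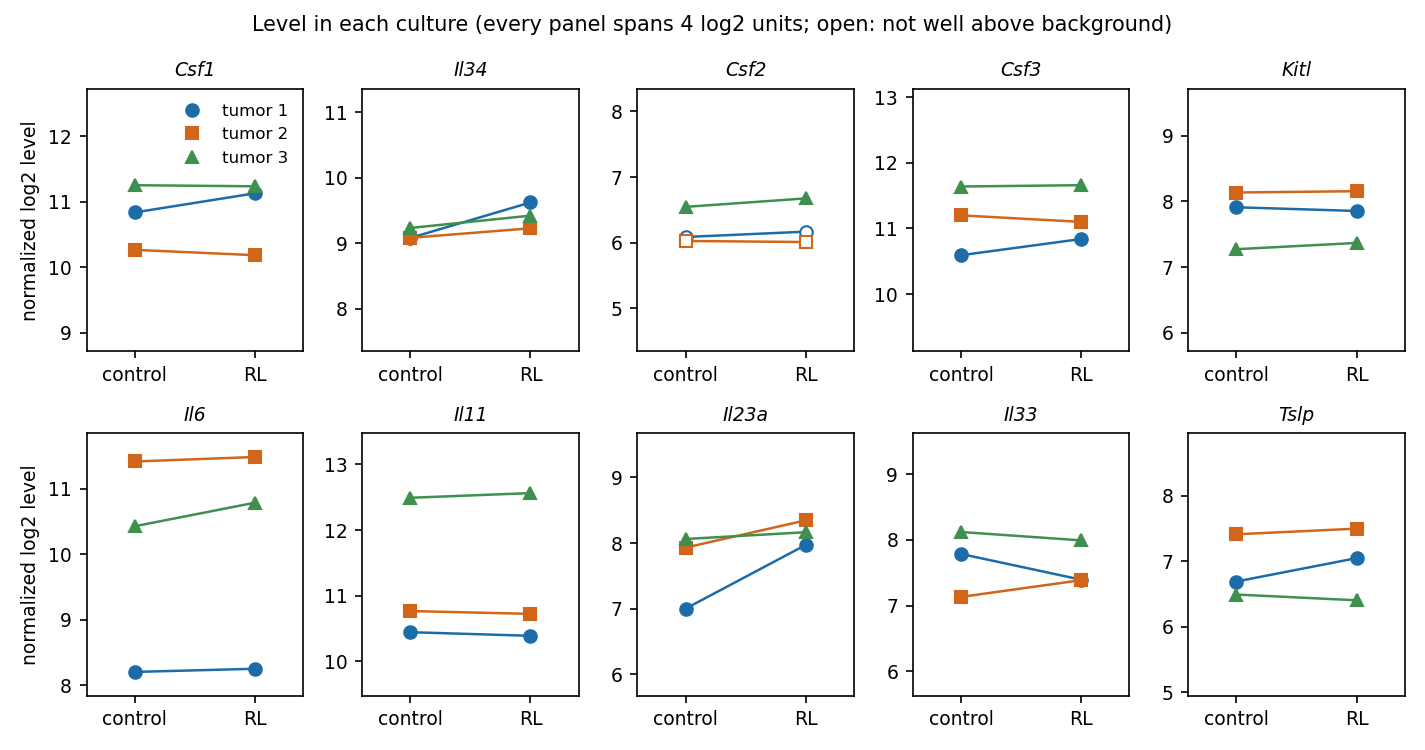
The normalized log2 level (y axis, each panel spanning 4 log2 units) of the 10 cytokine genes is plotted in the control and the RL culture (x axis) of tumors 1, 2 and 3, with a line for each tumor and open symbols where the probe was not well above background. The lines of Il6 lie farthest apart, with 8.20 in the control culture of tumor 1 and 11.41 in that of tumor 2, and the line of Il23a in tumor 1 is the steepest.

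Of the factors for granulocytes and monocytes, Csf3 was well measured and Csf2 was not. Csf3 had log2 levels of 10.59, 11.20 and 11.64 in the control cultures of tumors 1, 2 and 3, and of 10.84, 11.10 and 11.66 with RL. The order of the tumors was the same in both conditions, and the range between them was 0.93 in mean level. The log2 ratios of 0.25, -0.099 and 0.020 gave a mean of 0.056 ± 0.18 (SD, n = 3; adjusted p in limma 0.92). For Csf2, 0 of 10 spots in the control channel and 1 of 10 in the RL channel were well above background in tumor 1, and 1 of 10 and 0 of 10 in tumor 2. In tumor 3 all 8 spots that were not outliers were well above background in both channels, at an intensity of 112 over a background of 71.9 in control and 57.5 over 33.9 with RL. Csf2 was thus measured in 1 of 3 arrays of each condition, in tumor 3, where the log2 ratio was 0.13.

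Kitl, which encodes stem cell factor, had the opposite order of tumors from Csf1. Its log2 levels were 7.91, 8.14 and 7.27 in the control cultures of tumors 1, 2 and 3, and 7.85, 8.16 and 7.37 with RL. Tumor 3 was lowest in both conditions, and the range in mean level was 0.83. The log2 ratios of -0.057, 0.020 and 0.096 lay on both sides of 0, with a mean of 0.020 ± 0.076 (SD, n = 3; 95% interval -0.14 to 0.18; adjusted p in limma 0.97). As a fold, the interval ran from 0.908 to 1.13.

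Il6 and Il11 showed the widest differences between tumors of all members. Il6, the inflammatory cytokine of the gp130 family, had log2 levels of 8.20, 11.41 and 10.43 in the control cultures of tumors 1, 2 and 3. With RL they were 8.25, 11.48 and 10.79. Tumor 1 stood far below the others, and the range in mean level was 3.22, or 9.30-fold, which exceeded that of 99.6% of genes tested. The RL culture was above control in 3 of 3 tumors, but by little: the log2 ratios of 0.048, 0.069 and 0.36 gave a mean of 0.16 ± 0.17 (SD, n = 3; 95% interval -0.028 to 0.35; adjusted p in limma 0.76).

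Il11, a gp130 cytokine of stroma and epithelium, was highest in tumor 3. Its log2 levels were 10.44, 10.77 and 12.49 in the control cultures and 10.39, 10.72 and 12.56 with RL. Tumor 3 exceeded the others in either condition, with a range of 2.11 in mean level, or 4.32-fold, above that of 98.5% of genes. The log2 ratios of -0.055, -0.043 and 0.071 had a mean of -0.0091 ± 0.070 (SD, n = 3; 95% interval -0.17 to 0.15; adjusted p in limma 0.98). Each tumor is 1 array, so these differences between tumors have no replicate of their own, and they come from different animals.

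The alarmins Il33 and Tslp had ratios of mixed sign. Il33 had log2 ratios of -0.39 and -0.13 in tumors 1 and 3 and of 0.26 in tumor 2, the array with the dyes turned. Its mean was -0.088 ± 0.33 (SD, n = 3; adjusted p in limma 0.91), and with the dye term it was -0.0024. Such a split by dye order was seen for 2 of 9 members, Il33 and Csf3, and for 34.7% of all genes tested. Across the 21728 genes the log2 ratios of tumors 1 and 3 correlated with Pearson's r of 0.45, and those of tumor 2 with r of -0.11 against either, where genes are not independent replicates. The levels of Il33 were 7.79, 7.13 and 8.12 in the control cultures of tumors 1, 2 and 3, with tumor 3 highest and tumor 2 lowest.

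Tslp had log2 levels of 6.69, 7.41 and 6.49 in the control cultures of tumors 1, 2 and 3, and of 7.05, 7.50 and 6.40 with RL. Tumor 2 was highest in both conditions, and the range in mean level was 1.01. The log2 ratios of 0.36, 0.087 and -0.088 had a mean of 0.12 ± 0.22 (SD, n = 3; adjusted p in limma 0.84). The spot was dim, with an intensity of 43.5 over a background of 34 in the RL culture of tumor 3.

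Receptor chains for these ligands were mostly measured in the same cultures. Of 17 chains on the list, 15 were tested, and those 15 were well above background in all 6 channels, as were 96.0% of all genes tested. Il23r was not well above background in any channel. Il7r, which pairs with Crlf2 in the TSLP receptor, was so in tumors 1 and 3 but not in tumor 2. In limma 0 of 15 were raised and 0 lowered, with adjusted p from 0.32 to 0.99, and the median log2 ratio was -0.019. Above 0 in all 3 tumors was 1 of 15, Il6st, and below 0 in all 3 were 3 of 15, Csf2rb, Csf2rb2 and Kit, where 14.2% and 13.3% of all genes tested were so.

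**Figure D4:**
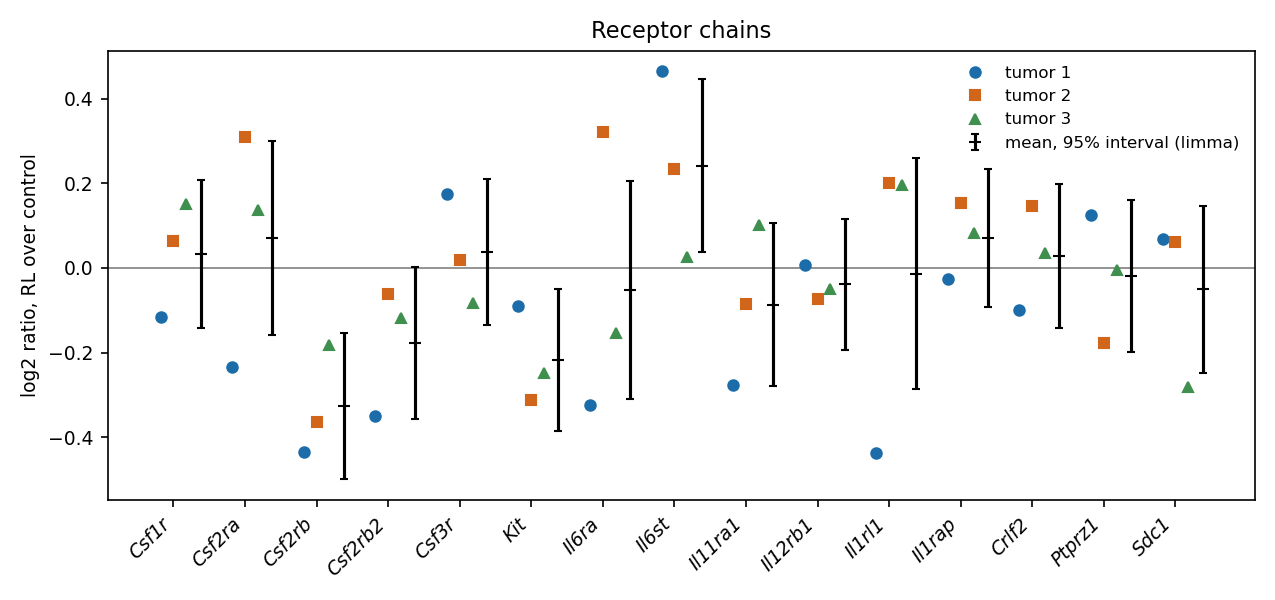
The log2 ratio of RL over control (y axis) of the 15 receptor chains tested (x axis) is plotted in tumors 1, 2 and 3 beside the mean and the 95% interval of the limma fit. Csf2rb has the lowest mean, -0.33, and Il6st the highest, 0.24.

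Csf2rb, the common beta chain of the GM-CSF, IL-3 and IL-5 receptors, had the lowest mean. Its log2 levels were 7.89, 7.29 and 8.03 in the control cultures of tumors 1, 2 and 3, and 7.46, 6.92 and 7.85 with RL. RL was the lower culture in 3 of 3 tumors, with log2 ratios of -0.43, -0.37 and -0.18. The mean was -0.33 ± 0.13 (SD, n = 3), and the adjusted p in limma was 0.32. With the dye term in limma, Csf2rb was lowered at an adjusted p of 0.012. It was 1 of 15 chains lowered in that fit, where 0.792% of all genes were. Its neighbor Csf2rb2, a beta chain for IL-3, had ratios of -0.35, -0.063 and -0.12. The alpha chain Csf2ra had ratios of -0.23, 0.31 and 0.14, with no common direction.

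Kit, the receptor of stem cell factor, had ratios of -0.090, -0.31 and -0.25, a mean of -0.22 ± 0.11 (SD, n = 3; adjusted p in limma 0.56). Il6st, the gp130 chain that serves both IL-6 and IL-11, had ratios of 0.46, 0.23 and 0.026, a mean of 0.24 ± 0.22 (SD, n = 3; adjusted p in limma 0.63). Neither passed the test. The ligand-binding chains Il6ra and Il11ra1 had means of -0.052 and -0.087, each with both signs among the tumors.

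Csf1r, the receptor of M-CSF and IL-34, had ratios of -0.12, 0.063 and 0.15, and the proposed IL-34 receptors Ptprz1 and Sdc1 had means of -0.019 and -0.051. Sdc1 was 1 of 2 chains whose level differed most between tumors, with a range of 1.65 and tumor 3 highest. The other was Il1rl1, the IL-33 receptor, with log2 levels of 8.05, 7.64 and 9.70 in the control cultures, a range of 2.06 in mean level. Its ratios were -0.44, 0.20 and 0.20. Il1rap, its partner, had a mean of 0.070, Csf3r one of 0.037 and Crlf2 one of 0.027.

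Among 17 genes of signaling downstream, all were tested, with 0 raised and 0 lowered in limma, 2 above 0 in all 3 tumors, where 14.2% of all genes tested were, and a median log2 ratio of 0.044. The highest means were those of Cish, an inhibitor induced by STAT5 (0.50, 0.15 and 0.17, mean 0.27, adjusted p 0.51), and Stat3, which transmits gp130 signals (0.36, -0.046 and 0.24, mean 0.18, adjusted p 0.73). The lowest were Myd88 at -0.060 and Irak1 at -0.053. Socs3, the feedback inhibitor induced by STAT3, had a mean of -0.014 and ratios between -0.038 and 0.017.

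Related cytokines were detected less fully. Of 20 on the list 19 had a probe and 12 were tested, with 0 raised and 0 lowered in limma, and a median log2 ratio of 0.029. Il1b, an inflammatory cytokine that the inflammasome matures, had the highest mean with ratios of 0.29, 0.19 and 0.36 (mean 0.28, adjusted p 0.38), and Lif the next, with a mean of 0.14 and an adjusted p of 0.79. The lowest were Il27 at -0.13 and Il18 at -0.10. Il12a, Il5 and Epo were not well above background in any channel, and Osm, Il3, Thpo and Il25 in only some.

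Markers of mammary epithelium were measured above background in the cultures. All 7 epithelial markers (Epcam, Cdh1, Krt8, Krt18, Krt19, Krt5 and Krt14) were well above background in all 6 channels, as were 96.0% of all genes tested. Genes tested had passed a filter on the same flag, so this count does not tell which cells were present. Of these 7 epithelial markers 0 passed the test in limma, which few of all genes did. Their mean log2 ratios ran from -0.33 to 0.049, with a median of -0.089. Of other cell types, 6 of 6 macrophage markers, 3 of 4 neutrophil markers with a probe, 2 of 5 T cell markers, 1 of 4 mast cell markers and 2 of 4 endothelial markers were well above background in all 6. Some genes of these lists were not tested, so the 96.0% is not their base. In any single channel, 54.5% to 56.2% of all probes were well above background. Cd3d, Cd3g and Cd8a of the T cell list and Cpa3 and Fcer1a of the mast cell list were not well above background in any channel. The macrophage markers had a median log2 ratio of -0.032, and each had its lowest mean level in tumor 2, 6 of 6, against 29.9% of all genes tested, with 2 of 6 in the order of tumors seen for Csf1. Of the epithelial markers 4 of 7 were lowest in tumor 2, and 2 of 7 had that order. Of 3 neutrophil markers tested, 0 passed in limma, and their median log2 ratio was -0.13. With the dye term 1 of the 3 was lowered, S100a8, where 0.792% of all genes were; its log2 ratios were -0.78, -0.34 and 0.017, and its adjusted p in limma was 0.57, or 0.043 with the dye term. S100a9 and Elane had means of -0.13 and -0.018, and adjusted p of 0.62 and 0.96 with the dye term.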

How the data were processed

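The data are 3 arrays with 2 dyes each, 1 array per tumor. The authors read them with Agilent Feature Extraction 10.7.3.1 and deposited, per dye, the median intensity of each spot and its local background, uncorrected, with flags for outliers and for spots well above background. The deposited log10 ratios (Cy5 over Cy3) and processed intensities came from the same software. The authors also deposited a table of log2 ratios; set against the arrays it ran as Cy5 over Cy3 (Pearson's r 0.961, 0.953 and 0.960, slopes 1.17, 1.20 and 1.17, medians 0.0024, -0.0011 and 0.00069 in tumors 1, 2 and 3), and its exact scale is not known.

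In R 4.3.3 with limma 3.58.1, intensities were background-corrected by normexp (offset 50), control spots dropped, ratios normalized by intensity loess, then loess on row and column (span 0.1), then Aquantile. Outlier spots were left out and spots averaged. Levels are normalized log2 values per channel and are compared only within a probe. Accessions matched the RefSeq table of GRCm38.p6 for 28026 of 55681 probes. A probe was kept if over 0.5 of its spots were well above background in all 3 control or all 3 RL channels, and the brightest kept probe stood for its gene. Ratios were fitted with lmFit and eBayes (2 residual, 6.93 prior degrees of freedom) and adjusted by Benjamini-Hochberg over 21728 genes. The labels put both cultures of a tumor on 1 array, so the ratio pairs them. The number of arrays limits precision. Alternatives changed the background correction, signal, loess, Aquantile, filter, choice of probe, outliers, model and test, or left out 1 tumor. Programs were tested on simulated data. Members and lists were chosen with earlier results of these data known. The rule named all members, all receptor chains, the 2 highest and 2 lowest of the signaling, related cytokine and NF-κB target lists, and the 5 genes nearest to the member of largest ratio. Other genes with values, among them Socs3, Ebi3, Cxcl10 and the marker genes, were chosen after their values were seen.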

Additional observations from a re-analysis of the deposited data

How the results depend on the processing

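No call of a member in limma was gained or lost under the alternatives other than these: with a dye term Il23a was raised (log2 ratio 0.48), and without tumor 2 Il23a and Il34 were, in a fit of 2 arrays that share a dye order. Il23a, Il34 and Il6 were above 0 under all 18 alternatives. Those that changed only Aquantile, the filter, the moderation, the block or the test left these ratios as they were, so they do not test the sign. Signs turned, with no adjusted p under 0.05, with median centering in place of loess for Csf1 (-0.10), Csf3 (-0.10) and Kitl (-0.054), with the scanner software's processed signals for Il11 (0.00055), and when 1 tumor was left out for Csf1 (-0.049 to 0.14), Csf3 (-0.040 to 0.13), Kitl (-0.018 to 0.058), Il11 (-0.049 to 0.014), Il33 (-0.26 to 0.064) and Tslp (-0.00055 to 0.22); the cause was not tested. Median centering also moved Il6 to 0.063, Il11 to -0.17 and Il33 to -0.21, with their signs kept. The ranges with 1 tumor left out were 0.26 to 0.69 for Il23a, 0.17 to 0.36 for Il34 and 0.058 to 0.21 for Il6. Csf2, untested, went from 0.065 to 0.33 with processed signals. The members' other 161 values kept their sign and their side of the threshold, or for Csf2 moved by less than 1 SD.

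The counts of genes raised and lowered among all genes tested, 1 and 5, moved more: to 6 and 12 without background correction, 131 and 172 with the dye term, 7 and 12 with robust moderation, and 36 and 50 by rank product. They were 0 and 0 with processed signals, with median centering, with an intensity trend and with no replicate block (channels not paired by tumor), 0 and 3 with no filter on dim probes, 0 raised with the stricter filter and 2 raised with the authors' log2 ratios. Leaving out 1 tumor gave 0 to 600 raised and 2 to 885 lowered, the highest counts being those without tumor 2, where both arrays left share a dye order. Signal over background limits the dim genes: Kitl, Il23a, Il33 and Tslp rest on 1 spot per array, as do the brighter Csf3, Il11 and Il34.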
